A study of Mus musculus with 6 samples.

Results

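Metallothioneins are small, cysteine-rich proteins of the cytosol that bind zinc and copper, and their genes Mt1 and Mt2 are switched on by zinc, cadmium, glucocorticoids and oxidative stress. The zinc-sensing transcription factor MTF-1 binds metal response elements in their promoters and also acts on the zinc exporter gene Slc30a1. Zinc transporters of the ZnT family (Slc30a genes) move zinc out of the cytosol, while those of the ZIP family (Slc39a genes) move it in.

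The 8 genes described here were Mt1, Mt2, Mtf1, Slc30a1, Slc30a5, Slc39a1, Slc39a10 and Slc39a14, of 48395 gene symbols in each table. All 8 were measured, and all 8 were among the 16739 genes that passed the filter on low counts. Mt1 and Mt2 were chosen by their measured difference between the groups in these same libraries, so that difference is given as a description with no test. Mtf1 and the 5 transporters were chosen for their function in zinc handling.

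RNA was sequenced from LSK cells, the marrow fraction negative for lineage markers and positive for Sca-1 and c-Kit, which holds stem cells and early progenitors. One group, of 3 libraries, is labelled Jak2VF/+ Hmga2 and the other, also of 3, Jak2VF/+ vector. Donor marrow for both groups came from Mx1Cre; Jak2V617F/+ mice given 5-fluorouracil. The allele makes an activated form of the kinase JAK2, and Mx1Cre is an interferon-inducible recombinase that is active in blood cells and in other tissues. The marrow was transduced with lentivirus carrying Hmga2 or the vector alone. Then 1000000 cells were injected into C57BL/6 recipients irradiated with 2 doses of 550 cGy, and marrow was taken 32 weeks later. The labels call the libraries biological replicates and give no ages, no numbers of animals pooled and no share of transduced cells. The comparison addressed what the chromatin protein Hmga2 changed in LSK cells that carry mutant Jak2.

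Total counts were 30413990 to 35471806 in the Hmga2 libraries and 24818011 to 31208673 in the vector libraries. Hmga2 itself was at 2.63, 6.63 and 5.91 CPM (counts per 1000000) in the libraries labelled Hmga2, against 5.96, 5.04 and 7.03 CPM in the vector libraries (log2 fold change -0.25, standard error 0.35; adjusted p = 0.934 in edgeR). Counts for the gene that names the group were therefore not higher in it, and directions below are those of the library labels. Whether reads of the lentiviral Hmga2 were counted for this gene could not be settled. These levels therefore do not show whether the lentiviral copy was expressed. Kit, the sorting antigen c-Kit, was at 345 to 375 CPM in the Hmga2 libraries and 248 to 354 CPM in the vector libraries, and Ly6a, which encodes Sca-1, at 32.2 to 45.5 and 19.3 to 59.1 CPM.

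Mt1 and Mt2 lie side by side on one strand of chromosome 8 of the mouse genome (mm10). Mt1 (ENSMUSG00000031765.8) spans positions 94179082 to 94180327 and Mt2 (ENSMUSG00000031762.7) positions 94172664 to 94173568, and the main transcript of each has 3 exons. The core of the metal response element was searched as TGCACNC and TGCGCNC on both strands, in windows from 250 bases before to 50 bases after each start that RefSeq annotates (GRCm38.p6). RefSeq promoter entries were found for 7 of the 8 genes. The 250 bases before the start are shown for Mt1 and Mt2, the pair that was lower in the Hmga2 libraries, and for Slc30a1, which is also under MTF-1 and was not lower. They run 5′ to 3′ on the coding strand, and capitals mark matches to a core on either strand.
Mt1, chr8:94178839-94179088, plus strand: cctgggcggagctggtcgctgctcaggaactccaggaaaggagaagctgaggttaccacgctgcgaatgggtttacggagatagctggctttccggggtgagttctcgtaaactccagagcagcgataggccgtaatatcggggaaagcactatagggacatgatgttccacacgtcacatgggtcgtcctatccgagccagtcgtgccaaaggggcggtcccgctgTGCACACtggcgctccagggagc
Mt2, chr8:94172368-94172617, plus strand: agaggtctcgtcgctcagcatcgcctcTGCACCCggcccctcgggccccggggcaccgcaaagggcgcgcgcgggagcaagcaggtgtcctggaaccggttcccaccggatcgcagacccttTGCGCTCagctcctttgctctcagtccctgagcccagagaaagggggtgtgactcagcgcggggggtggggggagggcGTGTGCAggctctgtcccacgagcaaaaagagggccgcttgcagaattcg
Slc30a1, chr1:191906531-191906780, plus strand: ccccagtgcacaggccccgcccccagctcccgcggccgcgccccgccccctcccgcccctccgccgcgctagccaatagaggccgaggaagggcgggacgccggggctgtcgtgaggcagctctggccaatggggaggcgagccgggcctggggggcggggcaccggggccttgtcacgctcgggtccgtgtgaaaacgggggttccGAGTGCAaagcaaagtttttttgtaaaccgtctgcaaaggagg

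The window of 300 bases held 3 cores for Mt1, 4 for Mt2 and 2 for Slc30a1. No core overlapped another. Of 32851 windows of the same length, 1.97% held at least 3 cores, 0.517% at least 4 and 7.11% at least 2. In the bases shown, Mt1 had the core TGCACAC at positions -23 to -17, counted from the start base as 1 and the base before it as -1. Mt2 had TGCACCC at -223 to -217, TGCGCTC at -128 to -122 and GTGTGCA, a match on the opposite strand, at -50 to -44. Slc30a1 had GAGTGCA, also a match on the opposite strand, at -43 to -37. The Slc30a5 window held 1 core, a count that 25.7% of all windows reached, and the windows of Mtf1, Slc39a1 and Slc39a10 held 0. Cores continued past the annotated start of the metallothionein genes: the first 300 bases of the main GENCODE transcript held 4 for Mt1 and 3 for Mt2. These counts are not separate from those above for Mt1. Its promoter window reaches into the gene and already held cores at positions 3 to 9 and 21 to 27. The first bases of a transcript are spliced and can include coding sequence, so matches there need not be promoter elements. Of 131058 annotated transcripts of all kinds, 0.182% and 0.838% held at least as many. These matches are a description of the sequence, and none was examined here for binding.

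Both metallothionein genes were lower in every Hmga2 library than in any vector library. Mt1 was at 37.2, 42.3 and 36.04 CPM in the Hmga2 libraries (replicates 1, 2 and 3), against 100.3, 83.2 and 85.2 CPM in the vector libraries. The 3 Hmga2 libraries lay close together and all below the lowest vector library. The means were 38.5 ± 3.34 CPM and 89.6 ± 9.37 CPM (SD, n = 3 each), and Hmga2 libraries had 43.0% of the vector mean. The fitted log2 fold change was -1.22 with a standard error of 0.11. Mt1 had 1237 to 1315 reads per Hmga2 library and 2034 to 3184 per vector library. In bulk libraries, fewer cells that express a gene and less of its RNA per cell cannot be told apart.

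Mt2 showed the same order of groups with a wider spread. It was at 13.9, 18.2 and 12.5 CPM in the Hmga2 libraries, against 51.2, 42.7 and 31.3 CPM in the vector libraries. Again the groups did not overlap, and within each group the spread was a larger share of the mean than for Mt1. The means were 14.9 ± 2.96 and 41.8 ± 9.99 CPM (SD, n = 3 each), or 35.6% of the vector mean in Hmga2 libraries, with a log2 fold change of -1.49 and a standard error of 0.22. Among Hmga2 libraries replicate 2 was the highest for both genes, and among vector libraries replicate 1 was the highest for both.

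**Figure D1:**
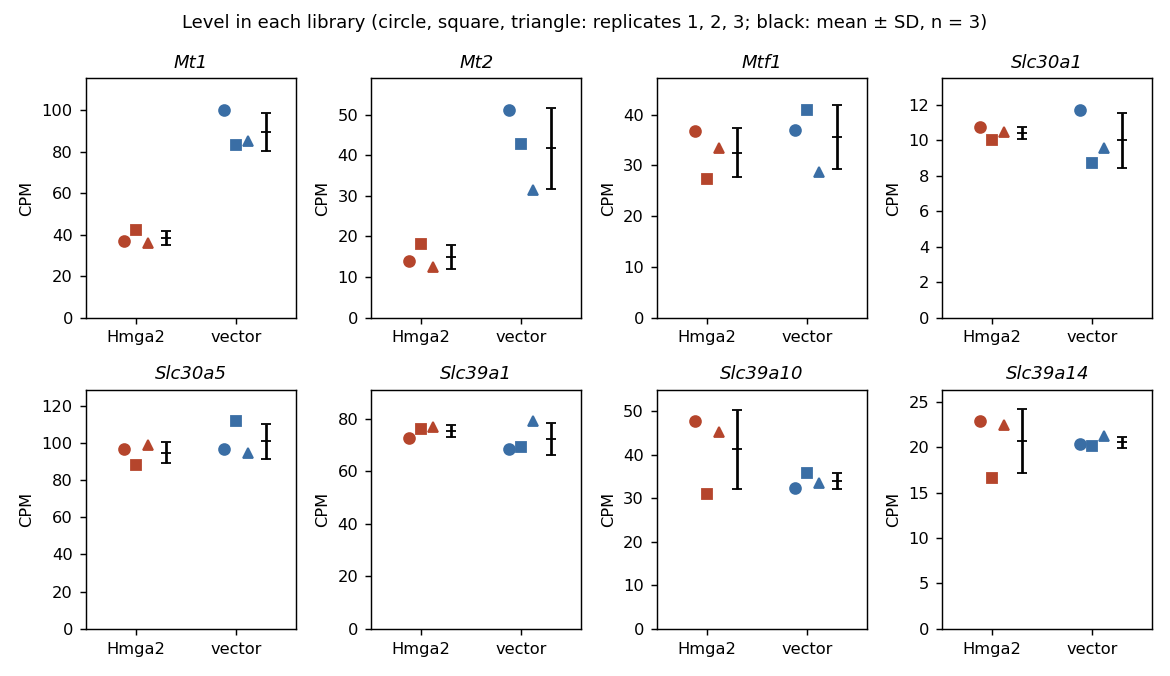
Level of each of the 8 genes in each library, in CPM on axes that start at 0, with Hmga2 libraries on the left and vector libraries on the right; black marks are the mean ± SD (n = 3). Mt1 lies between 36.04 and 42.3 CPM in the Hmga2 libraries and between 83.2 and 100.3 CPM in the vector libraries, while the groups overlap for Mtf1 and the 5 transporters.

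Of the 8 genes, 2 had all 3 Hmga2 libraries below all 3 vector libraries, and these were Mt1 and Mt2, while 0 had them all above. Over all 16739 genes, 5.88% were lower and 5.28% higher without overlap. Since Mt1 and Mt2 were selected on this difference, nothing is read from their count. At an adjusted p of 0.05, edgeR called 0 genes of 16739 (0%) with its quasi-likelihood test. Unadjusted p-values under 0.05 numbered 935 (5.59%), and DESeq2 called 71 genes (0.425% of 16719 with an adjusted p).

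The balance of the 2 genes within a library was as follows, given as a description because it rests on the same values. Mt1 had 2.67, 2.33 and 2.88 times the count of Mt2 in the Hmga2 libraries, and 1.96, 1.95 and 2.72 times in the vector libraries. Vector replicate 3 stood among the Hmga2 libraries, while the other vector libraries were below all of them. The mean log2 ratio was 1.39 ± 0.16 in Hmga2 libraries and 1.13 ± 0.28 in vector libraries, a difference of 0.26 (SD, n = 3 each), and without vector replicate 3 the difference was 0.42.

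Reads of Mt1 and Mt2 could be told apart by sequence, but reads of Mt2 and its antisense neighbour could not without strand. The longest exact run that the main transcripts share was 20 bases, of 549 bases for Mt1 and 511 for Mt2, and 0% of stretches of 25 bases were shared. The deposited estimates were whole numbers for both genes in 6 of 6 libraries. The antisense gene Gm45774 overlaps Mt2, and 52.9% of stretches of 36 bases in the Mt2 transcript lie opposite it. It has no row in these tables, and no source used here gives the strand setting of the counting.

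The other metallothionein genes of the cluster were nearly silent. Mt3, the brain metallothionein, had counts of 0, 3 and 3 in the Hmga2 libraries and 33, 27 and 6 in the vector libraries, and did not pass the count filter. Mt4, the metallothionein of stratified epithelium, had a count of 0 in every library, which allows up to 0.0848 to 0.0976 CPM in Hmga2 libraries and 0.0945 to 0.126 CPM in vector libraries (3 counts per library, counting error only).

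The zinc sensor gene Mtf1 (chromosome 4, positions 124802104 to 124849800) differed little between the groups. It was at 36.8, 27.3 and 33.4 CPM in the Hmga2 libraries, against 37.0, 41.0 and 28.8 CPM in the vector libraries. The groups overlapped, with the lowest value in Hmga2 replicate 2 and the next lowest in vector replicate 3. The log2 fold change was -0.13, with a 95% interval from -0.52 to 0.26 (adjusted p = 0.926, edgeR).

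The exporter gene Slc30a1 (chromosome 1, positions 191906767 to 191913247), which encodes the ZnT1 transporter of the plasma membrane, overlapped between the groups. Its levels were 10.7, 10.02 and 10.46 CPM in the Hmga2 libraries and 11.7, 8.73 and 9.55 CPM in the vector libraries. The Hmga2 libraries lay inside the range of the vector libraries. The log2 fold change was 0.06, with a 95% interval from -0.33 to 0.44 (adjusted p = 0.972, edgeR). Slc30a5 (chromosome 13, positions 100802648 to 100833427), whose product loads zinc into the early secretory pathway, was at 96.9, 88.1 and 98.6 CPM in the Hmga2 libraries. In the vector libraries it was at 96.5, 111.7 and 94.4 CPM, and the log2 fold change was -0.09, with a 95% interval from -0.31 to 0.12 (adjusted p = 0.894, edgeR).

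The 3 importer genes also overlapped between the groups. Slc39a1 (chromosome 3, positions 90248172 to 90253612), which encodes a zinc importer of the plasma membrane, was at 72.6, 76.2 and 76.9 CPM in the Hmga2 libraries and 68.3, 69.2 and 79.1 CPM in the vector libraries. Its log2 fold change was 0.06, with a 95% interval from -0.14 to 0.26 (adjusted p = 0.935, edgeR). Vector replicate 3 was the highest of the 6 libraries, and the other vector libraries were the lowest.

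Slc39a10 (chromosome 1, positions 46807544 to 46892852) encodes the importer ZIP10, whose gene MTF-1 is known to repress. It was at 47.7, 30.9 and 45.2 CPM in the Hmga2 libraries, against 32.3, 35.9 and 33.5 CPM in the vector libraries. Hmga2 replicates 1 and 3 stood above every vector library, and Hmga2 replicate 2 stood below them all. The log2 fold change of 0.28 had a 95% interval from -0.11 to 0.68 (adjusted p = 0.855, edgeR). Slc39a14 (chromosome 14, positions 70303469 to 70351425), whose product also carries manganese and iron, was likewise lowest in Hmga2 replicate 2: it was at 22.9, 16.6 and 22.5 CPM in the Hmga2 libraries and 20.3, 20.1 and 21.2 CPM in the vector libraries. Its log2 fold change was 0.01, with a 95% interval from -0.34 to 0.36 (adjusted p = 0.999, edgeR), and its sign turned in 4 of 13 other fits. Over the 6 genes chosen for function, 4 had a positive and 2 a negative log2 fold change, 0 had an unadjusted p under 0.05 in edgeR, and 0 were called by edgeR or DESeq2. Exact two-sided permutation tests of the 6 genes gave p-values from 0.4 to 1. With 3 libraries against 3 the smallest p-value of this test is 0.1, so it could not have reached 0.05.

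Levels of different genes were compared as CPM per kb of the main transcript. Mt1 was the highest of the 8 genes in both groups, at 70.1 ± 6.09 CPM per kb in Hmga2 libraries and 163 ± 17.1 in vector libraries (SD, n = 3 each). The order of Mt2 differed between the groups. In vector libraries Mt2 came second at 81.7 ± 19.6 CPM per kb, with its lowest library, 61.3, above every value of the other 6 genes. In Hmga2 libraries it was at 29.1 ± 5.79 CPM per kb and overlapped Slc39a1, at 31.8 ± 0.991, and Slc30a5, at 29.7 ± 1.77. Slc30a5 and Slc39a1 were at 31.7 ± 2.98 and 30.6 ± 2.52 CPM per kb in vector libraries and overlapped each other in both groups. Below them came Slc39a10, at 7.504 ± 1.65 CPM per kb in Hmga2 libraries and 6.16 ± 0.332 in vector libraries. Mtf1 was at 4.26 ± 0.636 and 4.66 ± 0.817, and Slc39a14 at 4.19 ± 0.712 and 4.17 ± 0.116 CPM per kb (Hmga2, then vector libraries), and these neighbours overlapped in both groups. Slc30a1 was the lowest of the 8, at 1.98 ± 0.07 CPM per kb in Hmga2 libraries and 1.91 ± 0.295 in vector libraries.

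**Figure D2:**
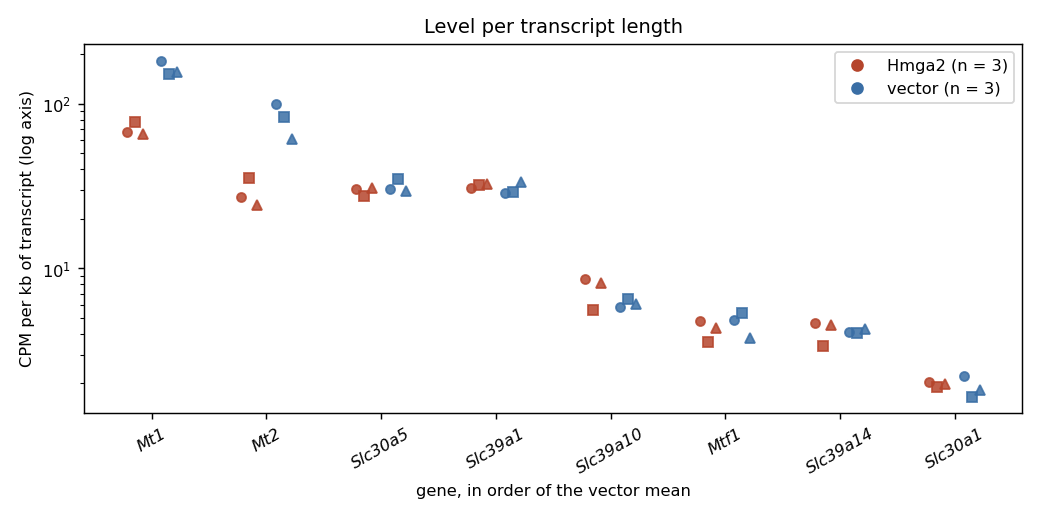
Level of each gene in CPM per kb of its main transcript on a log axis, 1 point per library (circle, square and triangle are replicates 1, 2 and 3), in the order of the vector means. Mt2 averages 81.7 CPM per kb in vector libraries, above Slc30a5, and 29.1 in Hmga2 libraries, among the values of Slc30a5 and Slc39a1.

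The wider set of zinc transporter genes was spread around 0. Of 24 transporter genes (10 Slc30a and 14 Slc39a), 19 passed the count filter. Positive log2 fold changes numbered 14 and negative 5, with a median of 0.03, beside a median of 0.00 and 8429 positive and 8310 negative values over all genes. The values ran from -0.38 to 0.28. Of the 19 genes 0 were called by edgeR or DESeq2, and 1 had an unadjusted p under 0.05 in edgeR (all genes: 5.59%). Among the 7 Slc30a genes 6 were positive (median 0.06), and among the 12 Slc39a genes 8 were positive (median 0.02). Of the exporter genes, the smallest p-values after Slc30a5 were those of Slc30a7, which fills the Golgi with zinc, at 0.09 ± 0.12 (log2 fold change ± standard error), Slc30a6, the partner of Slc30a5, at 0.06 ± 0.12, and Slc30a4 at 0.08 ± 0.21.

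Slc39a8, which encodes an importer of zinc and manganese, was the 1 transporter gene of the 19 past the count filter whose groups did not overlap (5.88% of all genes were lower without overlap). It was at 15.1, 14.7 and 14.3 CPM in the Hmga2 libraries and 17.0, 22.4 and 17.2 CPM in the vector libraries. The log2 fold change was -0.36 with a standard error of 0.15 (unadjusted p = 0.0472; adjusted p = 0.855, edgeR), so it did not pass over all genes. Among the 5 genes under the filter, Slc30a10 and Slc39a12 were also lower without overlap, at under 1 CPM in every library. Slc39a4, an importer known from the gut, had a log2 fold change of -0.38 ± 0.26, and Slc39a7, which releases zinc from the endoplasmic reticulum, of -0.12 ± 0.09 (± standard error; adjusted p = 0.855 and adjusted p = 0.863, edgeR).

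**Figure D3:**
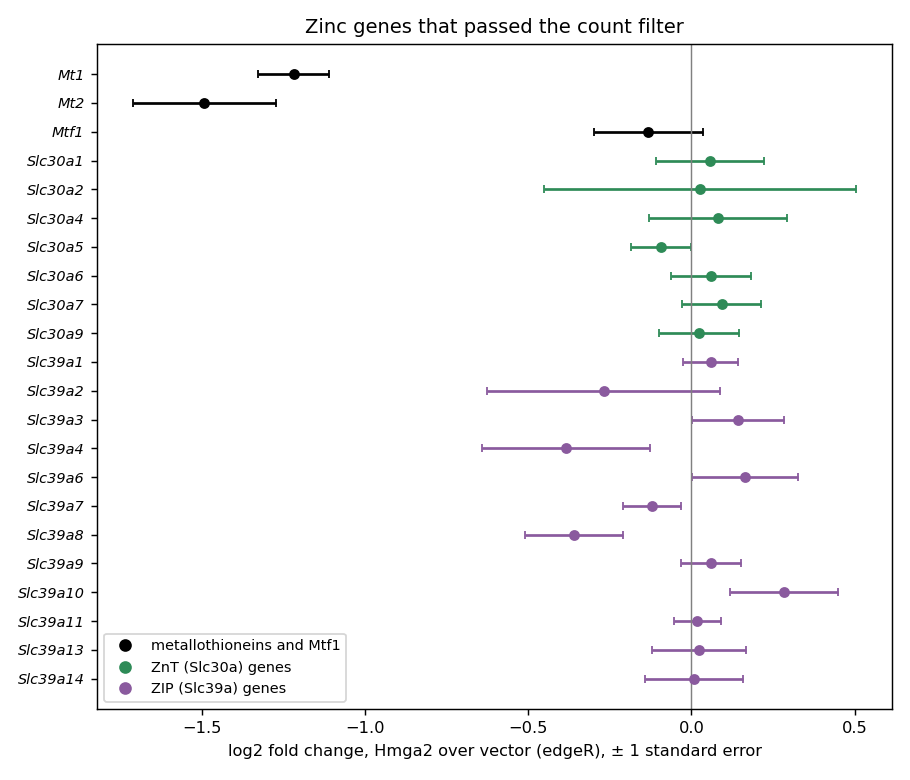
Log2 fold change, Hmga2 over vector, of Mt1, Mt2, Mtf1 and the 19 transporter genes that passed the count filter; bars are ± 1 standard error of the edgeR fit. Mt1 (-1.22) and Mt2 (-1.49) were chosen by this difference, so nothing is read from their distance to the transporters, which run from -0.38 to 0.28.

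Most genes around the cluster that passed the count filter were close to 0. Mt3, which lies between Bbs2 and Mt2, did not pass it. Its counts of 0, 3 and 3 in the Hmga2 libraries were all below those of 33, 27 and 6 in the vector libraries. Of 22 annotated genes within 250 kb of Mt1 or Mt2, 16 had a row and 10 passed the count filter, with 3 positive and 7 negative log2 fold changes and 0 called by edgeR or DESeq2. In edgeR, 1 had an unadjusted p under 0.05 (all genes: 5.59%), and the smallest adjusted p was 0.855. Nup93, which encodes a nuclear pore protein and starts 35.5 kb after the start of Mt1, was at 121, 108 and 125 CPM in the Hmga2 libraries and 122, 133 and 137 CPM in the vector libraries. Its log2 fold change was -0.15 ± 0.09 (± standard error; adjusted p = 0.855, edgeR). On the other side, Bbs2 (-0.14 ± 0.17), Ogfod1 (0.07 ± 0.11) and Nudt21 (-0.04 ± 0.07) were close to 0. Without overlap, Herpud1, an endoplasmic reticulum stress gene, was lower at -0.20 ± 0.07 (adjusted p = 0.855, edgeR), and the noncoding gene 9330175E14Rik was higher at 0.50 ± 0.22 (adjusted p = 0.855, edgeR). Further genes in the window were Gnao1, at -1.21 ± 0.64 and under 1 CPM in every library, the miRNA gene Gm24159, at 0.30 ± 0.41, and the pseudogene Ap3s1-ps2, at -0.31 ± 0.30.

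**Figure D4:**
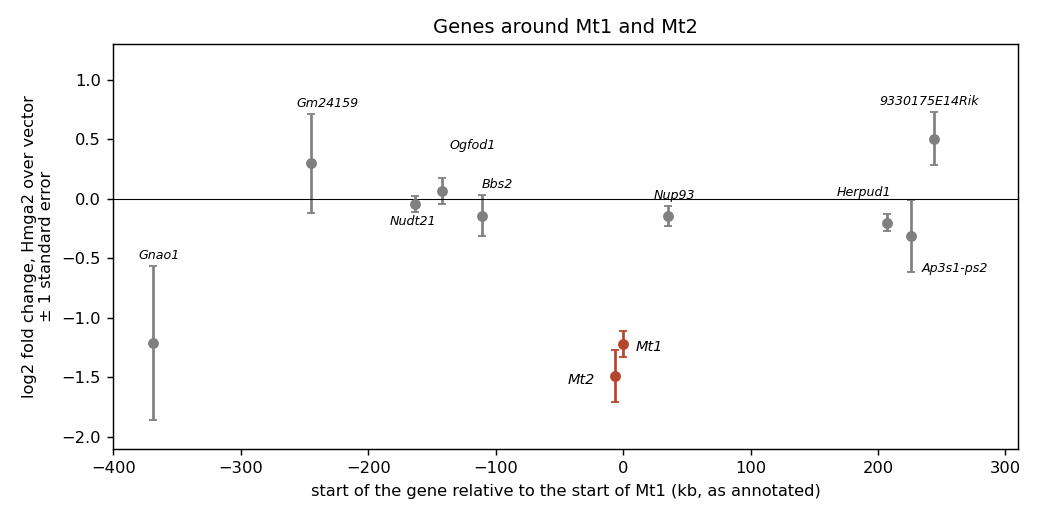
Log2 fold change, Hmga2 over vector, of the named genes around the cluster, against the distance of each gene's annotated start from that of Mt1 in kb; bars are ± 1 standard error. Mt1 and Mt2 lie at -1.22 and -1.49 and the nearest tested genes, Nup93 and Bbs2, at -0.15 and -0.14. Mt3 lies nearer but did not pass the count filter and is not shown.

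Lists of genes under regulators that are known to act on metallothioneins were counted, without a test of the list. Counted in the same way were other metal-responsive genes and copper handling genes, which were grouped by function. Among 16 glucocorticoid-responsive genes, 8 were positive and 8 negative (median 0.04). Fkbp5, a target of the glucocorticoid receptor, was at 159, 158 and 150 CPM in the Hmga2 libraries and 155, 149 and 171 CPM in the vector libraries. Lcn2, which is also a neutrophil granule gene, was at 4.01, 2.31 and 4.28 CPM in the Hmga2 libraries, against 5.67, 12.4 and 9.29 CPM in the vector libraries. It was the 1 gene of these 5 lists that DESeq2 called (adjusted p = 0.0462; adjusted p = 0.855 in edgeR). The receptor gene Nr3c1 had a log2 fold change of 0.25 ± 0.13, Cebpd of -0.80 ± 0.35 and Cebpb of -0.58 ± 0.28 (± standard error).

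Of 17 targets of NRF2, the transcription factor of the oxidative stress response, 5 were positive and 12 negative, with a median of -0.06 and 4 genes lower without overlap (all genes: 5.88%). Gstm1, a glutathione transferase, was at 91.2, 95.4 and 82.7 CPM in the Hmga2 libraries and 125, 187 and 107 CPM in the vector libraries. Gsr, encoding glutathione reductase, was at 66.3, 52.8 and 58.3 CPM in the Hmga2 libraries and 78.6, 101.7 and 68.8 CPM in the vector libraries. Both had adjusted p = 0.855 in edgeR. Nqo1 and Srxn1, also on the list, had log2 fold changes of -0.06 ± 0.21 and -0.0038 ± 0.24 (± standard error). Activity of NRF2 was not tested. Gclm, for glutathione synthesis, was at -0.20 ± 0.10 and G6pdx at -0.20 ± 0.11.

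Of 13 other metal-responsive genes that passed the filter, 5 were positive and 8 negative (median -0.20), and 3 were lower without overlap (all genes: 5.88%). These were the iron exporter gene Slc40a1, at 10.2, 6.37 and 6.29 CPM in the Hmga2 libraries and 16.5, 21.2 and 10.4 CPM in the vector libraries, the ferritin light chain gene Ftl1 (log2 fold change -0.27 ± 0.12) and Gclm. The difference of Slc40a1 was -1.07 ± 0.31 (adjusted p = 0.855, edgeR), and Csrp1 was at 0.20 ± 0.12. Of 13 copper handling genes 12 were negative and 1 positive, with a median of -0.16 and 2 lower without overlap, Sco1 and Cox11 (all genes: 5.88%). The largest difference was that of the copper exporter gene Atp7b, at 7.29, 5.204 and 10.8 CPM in the Hmga2 libraries and 15.6, 17.8 and 6.53 CPM in the vector libraries (log2 fold change -0.77 ± 0.42; adjusted p = 0.855, edgeR). The positive one was Atp7a, another copper exporter, at 7.66, 4.68 and 6.24 CPM in the Hmga2 libraries and 4.73, 4.27 and 3.39 CPM in the vector libraries (log2 fold change 0.58 ± 0.24; adjusted p = 0.855, edgeR). Steap3 was at -0.30 ± 0.14 and Sco1, a copper chaperone of cytochrome oxidase, at -0.24 ± 0.12. Of 12 STAT3-responsive genes 4 were positive and 8 negative (median -0.16). Stat3 itself was at 228, 213 and 223 CPM in the Hmga2 libraries and 196, 191 and 200 CPM in the vector libraries (log2 fold change 0.18 ± 0.07; adjusted p = 0.855, edgeR). Saa3, an acute phase gene at 0.130 to 0.233 CPM in Hmga2 libraries and 0.461 to 3.06 CPM in vector libraries, was at -2.84 ± 0.81, Cebpd at the value above and Junb at -0.60 ± 0.37. In edgeR 0 members of these 5 lists were called. Unadjusted p-values under 0.05 were found for 1 glucocorticoid-responsive, 2 NRF2, 1 metal-responsive, 1 copper and 2 STAT3-responsive genes (all genes: 5.59%).

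The genes whose profile over the 6 libraries was most like that of Mt1 were sought among 10201 named genes with a mean of at least 5 CPM. Likeness was the root mean square distance between log2 CPM profiles, each minus its own mean, with a median distance of 0.64 over all of these genes. Hebp1, which encodes a haem-binding protein, was the nearest at 0.21, followed by Mt2 at 0.22, Epdr1 and Lmna at 0.26 each, Crip2 at 0.27 and Ccne1, encoding cyclin E1, at 0.28. Hebp1 was at 9.19, 10.4 and 9.29 CPM in the Hmga2 libraries and 18.4, 17.1 and 15.5 CPM in the vector libraries. Lmna, which encodes lamins A and C of the nuclear envelope, was at 12.8, 17.4 and 14.2 CPM in the Hmga2 libraries and 30.7, 33.5 and 21.2 CPM in the vector libraries. All of these genes were lower in the Hmga2 libraries without overlap, which likeness to Mt1 brings with it.

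Markers of other cell types mostly had negative log2 fold changes, and their part in the metallothionein levels was not tested. Over all genes 5.88% were lower without overlap, 5.59% had an unadjusted p under 0.05 in edgeR, and DESeq2 called 0.425%. Of 12 granulocyte markers, 12 were negative and 9 were lower without overlap, and DESeq2 called 5 of them and edgeR 0. Their summed levels were 4892, 3011 and 4149 CPM in the Hmga2 libraries and 4438, 9416 and 5061 CPM in the vector libraries. Mpo made up most of these sums, at 3505, 1987 and 2911 CPM in the Hmga2 libraries and 2990, 6344 and 3101 CPM in the vector libraries. Apart from Mpo, Elane, which encodes neutrophil elastase, was at 187, 173 and 149 CPM in the Hmga2 libraries and 348, 843 and 253 CPM in the vector libraries. Markers above every Hmga2 library numbered 9, 12 and 11 of the 12 in vector replicates 1, 2 and 3.

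Of 17 glial and neural markers 9 passed the filter, 7 of those were negative and 3 were lower without overlap (all genes: 5.88%), and DESeq2 called 3 (all genes: 0.425%) and edgeR 0. Their sums were 226, 260 and 219 CPM in the Hmga2 libraries and 434, 476 and 229 CPM in the vector libraries, most of it from Mbp and Cnp, which are also read outside glia. Gfap, the defining astrocyte gene, was at 1.24, 1.56 and 0.728 CPM in the Hmga2 libraries and 11.6, 9.57 and 3.77 CPM in the vector libraries. The 2 positive markers were Aldh1l1 and Cnp, at log2 fold changes of 0.22 ± 0.23 and 0.19 ± 0.12 (± standard error). Both overlapped between the groups. Markers above every Hmga2 library numbered 7, 7 and 4 of the 9 in vector replicates 1, 2 and 3. Olig2 was at 0 in the 3 Hmga2 libraries and in vector replicate 2.

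Of 16 erythroid markers 11 were negative and 4 were lower without overlap, and DESeq2 called 3 and edgeR 0. Their sums were 1575, 1338 and 2270 CPM in the Hmga2 libraries and 2026, 2483 and 2087 CPM in the vector libraries. Of 9 plasma cell markers 9 were negative and 1, Xbp1, was lower without overlap, and DESeq2 called 1 and edgeR 0. Their sums were 826, 4549 and 603 CPM in the Hmga2 libraries and 13774, 781 and 11757 CPM in the vector libraries, with vector replicate 2 among the Hmga2 libraries. In edgeR 10 granulocyte, 5 glial, 8 erythroid and 2 plasma cell markers had an unadjusted p under 0.05 (all genes: 5.59%).

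Stem and progenitor markers were positive for 10 of 12 genes (all genes: 8429 of 16739), and 1, Meis1, was higher without overlap (all genes: 5.28%). DESeq2 and edgeR called 0 of them, and 1 had an unadjusted p under 0.05 in edgeR. Their sums were 2045 to 2124 CPM in Hmga2 libraries and 1611 to 1892 CPM in vector libraries and did not overlap. Cd34, Kit and Gata2 had the highest mean levels on this list, and each of them overlapped between the groups. Marrow stroma markers (5 of 8 positive) had sums of 62.4 to 83.9 CPM in Hmga2 libraries and 61.9 to 79.9 CPM in vector libraries. Most of each sum was Pdgfrb, with means of 58.2 and 55.4 CPM, so the sums say little of the other stroma markers. Of the 8, 2 were higher and 1 was lower without overlap (all genes: 5.28% and 5.88%). DESeq2 called 2 of them and edgeR 0, and 3 had an unadjusted p under 0.05 in edgeR. Mast cell markers (3 of 8 positive) had sums of 146 to 368 CPM in Hmga2 libraries and 247 to 284 CPM in vector libraries.

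**Figure D5:**
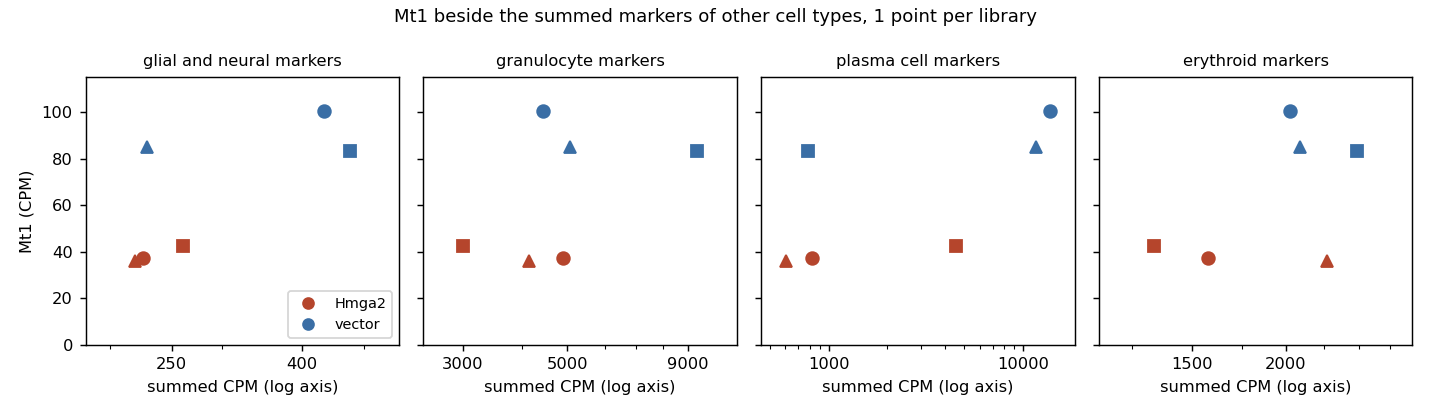
Mt1 in CPM against the summed CPM of 4 marker lists on a log axis, 1 point per library (circle, square and triangle are replicates 1, 2 and 3). The 2 highest sums are those of vector libraries in the panels of glial, granulocyte and plasma cell markers; in the erythroid panel the highest sum is that of vector replicate 2 and the next that of Hmga2 replicate 3.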

How the data were processed

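The authors deposited expected counts, that is estimated reads per gene symbol, 1 table per library, judged from the values: none was below 0, and 67.3% to 70.1% of those above 0 were whole within 1e-06. The submitters' processing notes name Partek 3.0, Bowtie2 and the build mm10; no source used here gives the counter, annotation or strand setting. Estimated counts divide reads that fit several genes by a model. Within groups, pairs of libraries exceeded sampling noise, with a chi-square of 23.0 to 52.4 for each degree of freedom. Counts were rounded and fitted over all genes with edgeR 4.0.16 in R 4.3.3 (filterByExpr, TMM scaling, quasi-likelihood F test on group, Benjamini-Hochberg adjustment, threshold 0.05). Standard errors came from the F statistic, and p-values cover the spread between these libraries only. CPM were scaled by TMM factors; at these depths 3 reads are 0.0848 to 0.126 CPM on that scale. For profile distances a prior count of 2 was added before taking log2 CPM. The steps were tested on simulated counts.

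Positions and transcript lengths come from GENCODE M21, on the same build, and promoters from RefSeq (GRCm38.p6). Transcript length is that of the main (APPRIS principal) transcript. Members, lists and tests were chosen with earlier results of these data known. Named genes were the 8 members, Hmga2, up to 4 genes per list by unadjusted p, tested genes within 250 kb of Mt1 or Mt2, the 6 nearest profiles and defining markers; Fkbp5, Nqo1, Srxn1, Cox11, Slc30a10, Slc39a12 and the markers Mpo, Elane, Mbp, Cnp and Xbp1 were added after their values were seen, and 1 gene that the rule names is not reported here. Alternatives were other scalings, no count filter, DESeq2 1.42.0, a replicate block, a robust fit, a table without 393 immunoglobulin symbols and each library left out.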

Additional observations from a re-analysis of the deposited data

How the results depend on the processing

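The log2 fold change of Mt1 stayed between -1.29 and -1.13 and that of Mt2 between -1.66 and -1.32 over 13 alternative fits, within 1 SD of the libraries in each; leaving out each library in turn gave these extremes. With each library left out the difference in the log2 ratio of Mt1 to Mt2 ran from 0.18 to 0.42, and edgeR called 0 genes, 0 of the 6 genes chosen for function, 0 list members and 0 neighbours of the locus. DESeq2 called 71 genes and 1 list member, Lcn2, and edgeR without the count filter called 1 gene; the cause was not tested. Differences near 0 turned sign: Slc39a14 was at -0.0055 with the replicate block and ran from -0.071 to 0.14 with each library left out, and Slc30a1 ran from -0.032 to 0.19. The median over the importer genes ran from -0.02 to 0.04 and that over the exporter genes from 0.0047 to 0.11. Slc39a10 ran from 0.17 to 0.45 over the 13 fits, with adjusted p from 0.634 to 1. Libraries with the same replicate number did not deviate together (correlations of -0.21, -0.50 and -0.26). Deviations were taken from the means of 3 libraries, so this cannot exclude that equal numbers share an origin. With the replicate block edgeR called 0 genes, and the mean difference in the ratio stayed at 0.26. Total-count scaling moved the median of all genes to 0.03. In the 250 bases before the start alone, Mt1 held 1 core in place of 3. The others, at positions 3 to 9 and 21 to 27, lie just after the start that RefSeq annotates. With 3 libraries a group, the intervals of the transporter genes state how far their differences are bounded.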
